A study of Schmidtea mediterranea with 9 samples.

Results

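The transcripts described here are 5 of the 36036 in the tables, chosen by name for the early female germline and the somatic ovary of the planarian *Schmidtea mediterranea*. They are the transcript of *zfs1*, the pair SMED30000949 and SMED30002872 (both annotated *tgs-1*), SMED30004223 (best named match human KLF4) and SMED30002414 (best named match zebrafish Delta-like protein C). The last pair are called the KLF4 match and the Delta-like C match below, since their names come from proteins of other animals. The 5 were picked when their differences between all 3 tissues were already known, so these differences are given as a description without p-values. All 5 passed the filter on low counts, as did 18416 transcripts in all.

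The samples came from laser-capture microdissection, in which chosen areas are cut out of stained sections so that RNA comes from those areas alone. Worms of the sexual strain, which are hermaphrodites, were fixed in acetone and cryosectioned, and the labels give no transgene and no treatment for any of them. There were 3 ovary, 3 testis and 3 non-gonadal libraries, the last from tissue outside the gonads. Each ovary library pooled 14 worms (10 sectioned crosswise and 4 sagittally), while each testis or non-gonadal library pooled 6 worms (4 crosswise and 2 sagittally). Pooling means that the spread between libraries is not the spread between single worms. In comparisons with ovary, number of worms and tissue cannot be told apart.

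Planarian germ cells arise from stem cells called neoblasts, and the sexual strain makes both oocytes and sperm. CCCH zinc-finger proteins of the tristetraprolin type, to which yeast Zfs1 belongs, bind AU-rich stretches of mRNA and speed their decay. KLF4 is a zinc-finger transcription factor known in mammals for its part in pluripotency, and its planarian counterpart marks early germ cells of both sexes. *tgs-1* is known as a marker of a neoblast subset, and the study also found it abundant in progenitors of female germ cells. It found *zfs1* in female germ cells and not in male ones. Delta proteins are membrane ligands of the receptor Notch, and the study placed its *delta3* in somatic cells of the ovary.

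The sequence of *zfs1* carries the reason for its name, and its zinc fingers are printed from the stretch the study used for its probe and double-stranded RNA. Its first 399 bases were at hand, as for the other genes below, and whether the stretch runs on was not checked. The longest open frame of these bases had 97 codons and ended in a stop codon. Codons 4 to 63 are given 5′ to 3′, with the codons of the zinc-binding cysteines and histidines in capitals.
zfs1: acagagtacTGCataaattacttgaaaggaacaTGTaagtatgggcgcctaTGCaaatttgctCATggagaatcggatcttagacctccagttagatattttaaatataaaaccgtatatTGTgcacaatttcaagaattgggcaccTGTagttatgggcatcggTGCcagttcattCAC
The first finger spanned codons 7 to 25, with 7, 5 and 3 codons between its zinc-binding residues. The second spanned codons 44 to 63, with 8, 5 and 3 codons between them, and 18 codons separated the fingers. For *tgs-1* and *delta3*, the first 30 codons of the longest open frame in the 399 bases at hand are shown to identify the genes. The first codon is in capitals, and neither frame reached a stop codon in these bases.
tgs-1: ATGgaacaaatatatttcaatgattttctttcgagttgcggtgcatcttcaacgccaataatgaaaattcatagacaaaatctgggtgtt
delta3: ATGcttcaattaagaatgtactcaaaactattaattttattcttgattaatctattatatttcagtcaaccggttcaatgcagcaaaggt
The sources used here link a probe to a row of the tables by name for *zfs1* alone. Which of the *tgs-1* transcripts matches the *tgs-1* probe, and whether SMED30002414 is *delta3* or SMED30004223 is *klf4*, was not tested.

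Libraries held between 18611584 and 25730833 counted reads. Levels are given as TPM, a unit that sums to the same total in every library and is corrected for transcript length, so that levels of different transcripts can be set side by side. The captures followed their labels: *lecg*, a lectin gene of oocytes, stood at 2840 to 3059 TPM in ovary, 90.5 to 104 in testis and 7.40 to 28.4 in non-gonadal libraries. The summed level of 7 testis germ cell markers was 10922 to 11967 TPM in testis, 115 to 171 in ovary and 33.8 to 63.4 in non-gonadal libraries, and no marker was at 0 in any library. The 7 were *sped-1*, *C3H-zfn-1*, *elav2*, *rap55*, *nf-yb*, *eIF3c* and *bic-c*. Of these, *nf-yb* and *eIF3c* were raised most in ovary over non-gonadal tissue, at means of 48.9 against 6.14 and 9.46 against 0.765 TPM. Markers of each gonad were thus measured at low levels in the other captures, and their part in the levels below was not tested. In such bulk samples, fewer cells of a type and less RNA per cell cannot be told apart.

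By TPM *zfs1*, the CCCH zinc-finger gene, was the most abundant of the 5 in ovary, and it was all but missing from testis. Without correction for length, its 3869 ovary counts lay below the 7918 of the KLF4 match and the 4763 of the Delta-like C match. The *zfs1* transcript of 421 bases stood at 158, 129 and 143 TPM in the ovary libraries (replicates 1, 2 and 3), from 1401, 1256 and 1212 counts. The non-gonadal libraries gave 1.94, 5.48 and 2.46 TPM from 17, 56 and 23 counts, and the testis libraries held 0, 1 and 0 counts. The 3 tissues did not overlap, and among the non-gonadal libraries replicate 2 stood above the others. The mean was 143 ± 14.5 TPM in ovary (SD, n = 3), the 935th highest ovary level of all transcripts, and 3.29 ± 1.91 TPM in non-gonadal tissue (SD, n = 3). After scaling by the trimmed mean of M values (TMM), which sets libraries on a common scale from transcripts that change little, the log2 difference of ovary over non-gonadal tissue was 4.79 (SE 0.27). Without non-gonadal replicate 2 it was 5.39. With a single count in testis, ovary over testis came to a ratio of 2123, whose exact 95% interval of 381 to 83865 covers counting error only. The ratio of non-gonadal tissue to testis was 78.4 by the same method, with an interval from 13.7 to 3128.

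The KLF4 match, related to a transcription factor family with DNA-binding zinc fingers, came second in ovary by TPM and was the only 1 of the 5 measured well in testis. SMED30004223 has 1244 bases and stood at 79.7, 114 and 102 TPM in ovary replicates 1, 2 and 3, from 2086, 3266 and 2566 counts. Non-gonadal libraries gave 3.63, 7.72 and 5.33 TPM, and testis libraries 2.16, 1.76 and 2.68 TPM from 62, 56 and 85 counts. Ovary stood far above the rest, while the highest testis library and the lowest non-gonadal library lay close to each other. The means were 98.6 ± 17.3, 5.56 ± 2.06 and 2.20 ± 0.462 TPM in ovary, non-gonadal tissue and testis (SD, n = 3 each). The log2 difference was 3.50 (SE 0.22) for ovary over non-gonadal tissue, 4.41 (SE 0.24) for ovary over testis and -0.91 (SE 0.25) for testis over non-gonadal tissue. The last was under the 2-fold minimum for a call. It passed at -1.46 when scaled by library size alone, at -1.13 without testis replicate 3 and at -1.14 without non-gonadal replicate 1.

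**Figure D1:**
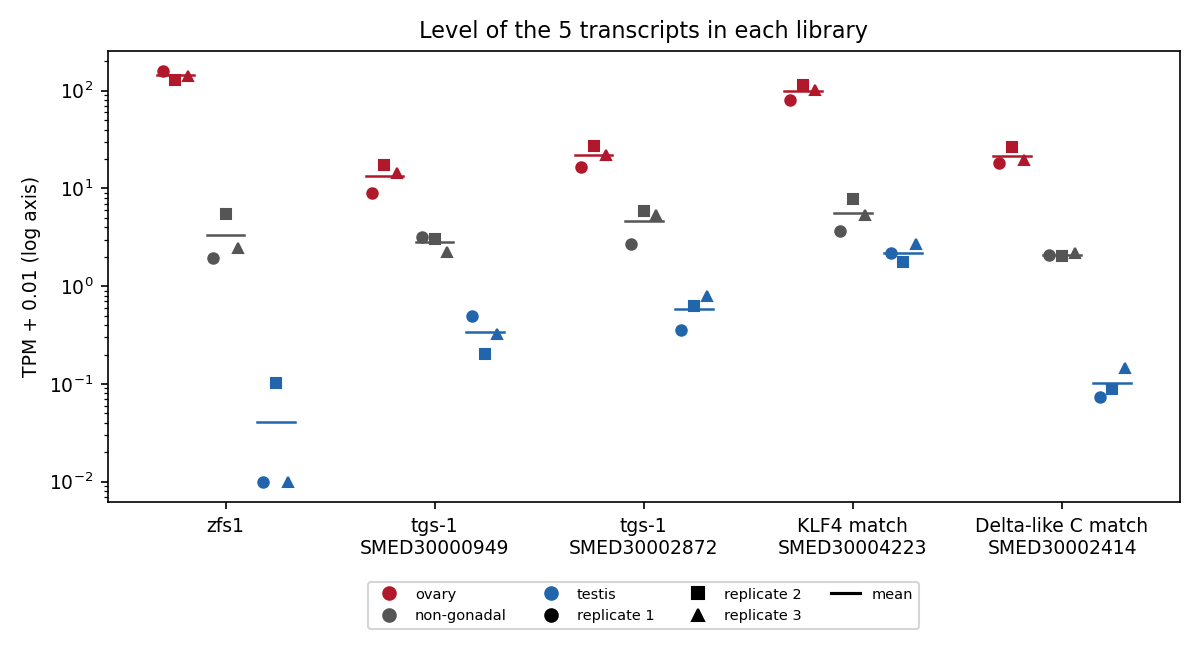
TPM plus 0.01 on a log axis for each of the 9 libraries, coloured by tissue, with a symbol for each replicate and a bar at the mean of the 3 libraries. All 5 transcripts are highest in the 3 ovary libraries, and *zfs1* is at 0 counts in 2 of the 3 testis libraries, drawn at the bottom of the axis.

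Both *tgs-1* transcripts were lower in ovary than *zfs1* and the KLF4 match, and kept a larger share of their ovary level outside the gonads. SMED30000949, of 1610 bases, stood at 8.94, 17.2 and 14.4 TPM in ovary replicates 1, 2 and 3, at 3.16, 3.02 and 2.24 in non-gonadal libraries and at 0.484, 0.194 and 0.317 in testis libraries. SMED30002872, of 1519 bases, stood at 16.5, 27.2 and 22.0 TPM in ovary, at 2.69, 5.84 and 5.34 in non-gonadal tissue and at 0.342, 0.618 and 0.775 in testis. For neither transcript did the tissues overlap, and the testis values rest on 8 to 18 counts a library for the first and 12 to 30 for the second. Mean levels in ovary were 13.5 ± 4.19 and 21.9 ± 5.37 TPM (SD, n = 3). The log2 differences of the pair were almost the same: 1.62 (SE 0.23) and 1.59 (SE 0.25) for ovary over non-gonadal tissue. Between the gonads they were 4.28 (SE 0.30) and 4.15 (SE 0.32), and for testis over non-gonadal tissue -2.66 (SE 0.32) and -2.55 (SE 0.34). Reads that fit both transcripts may have been split between them, and how such reads were handled is not stated in those sources.

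The Delta-like C match, whose named match is a Notch ligand, stood at 18.3, 26.3 and 19.7 TPM in ovary replicates 1, 2 and 3, from 1320, 2085 and 1358 counts. SMED30002414 is the longest of the 5 transcripts at 3432 bases. Its non-gonadal level had the smallest relative spread among the 5, at 2.10, 2.03 and 2.17 TPM. In testis it had 5, 7 and 12 counts, or 0.0631, 0.0798 and 0.137 TPM. The tissues were again in the order ovary, non-gonadal tissue, testis without overlap. The mean ovary level was 21.4 ± 4.28 TPM (SD, n = 3), and the log2 difference was 2.71 (SE 0.13) over non-gonadal tissue and 6.74 (SE 0.20) over testis. Testis lay below non-gonadal tissue by a log2 difference of -4.03 (SE 0.23), the lowest fitted value among the 4 transcripts with more than 1 testis count.

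**Figure D2:**
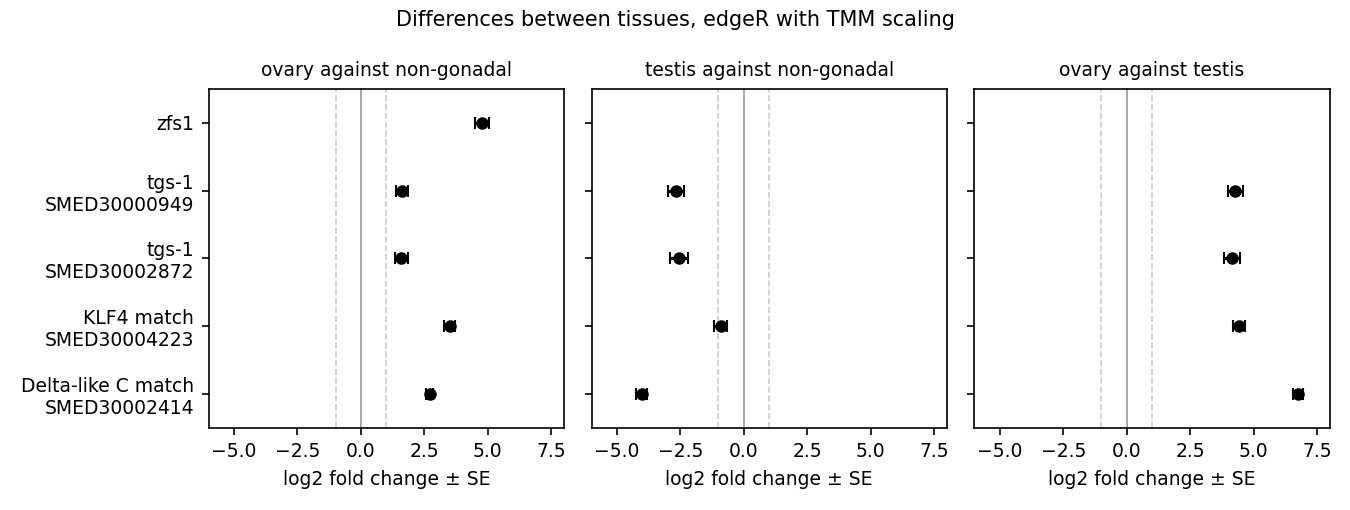
Log2 fold change with its standard error (bars) from edgeR for the 3 comparisons, with dashed lines at a 2-fold change. *zfs1* is left out of both testis panels because testis held 1 count, and the KLF4 match at -0.91 is the only point between the dashed lines.

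A transcript was called different when it changed at least 2-fold with an adjusted p of at most 0.01 in edgeR's quasi-likelihood test over all transcripts tested. In ovary against non-gonadal tissue 5 of the 5 were called higher, beside 18.3% of all transcripts tested. In testis against non-gonadal tissue 4 were called lower, beside 35.1% of all, and the KLF4 match was not called. Between the gonads 5 of 5 were called higher in ovary, beside 31.6% of all. The complete order of ovary above non-gonadal tissue above testis was called for 4 of the 5 and for 1.85% of all transcripts tested. By TPM without overlap between libraries, 5 of 5 had this order, beside 22.1% of all. The 5 were chosen with these calls known, so nothing is read from these counts.

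Within ovary the order by mean level per length was *zfs1*, the KLF4 match, SMED30002872, the Delta-like C match and SMED30000949. The lowest *zfs1* library, at 129 TPM, lay above the highest of the KLF4 match, at 114. SMED30002872 and the Delta-like C match overlapped, while the lowest library of the Delta-like C match, at 18.3 TPM, lay just above the highest of SMED30000949, at 17.2. Outside the gonads the order changed to the KLF4 match, SMED30002872, *zfs1*, SMED30000949 and the Delta-like C match, at means of 5.56, 4.62, 3.29, 2.81 and 2.10 TPM, and neighbours in that order overlapped in their library values except the last pair, at 2.24 and 2.17 TPM where they came nearest. In testis the KLF4 match led at 2.20 TPM, followed by SMED30002872 at 0.578, SMED30000949 at 0.332 and the Delta-like C match at 0.0934. There the KLF4 match stood above every library of the other 4, the *tgs-1* pair overlapped, and every *tgs-1* library lay above those of the Delta-like C match.

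Set as shares of the summed TPM of the 5, the make-up of the group changed with the tissue. *zfs1* gave 41.2% to 56.2% of the sum in ovary libraries, 14.0% to 22.8% in non-gonadal libraries and at most 3.38% in testis libraries. The KLF4 match gave 28.3% to 36.2% in ovary, 26.8% to 32.1% outside the gonads and 64.1% to 70.8% in testis. The sum itself was 281 to 313 TPM in ovary, 13.5 to 24.1 in non-gonadal tissue and 2.75 to 3.91 in testis.

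The non-gonadal level set against the mean ovary level separated the 5 further. By TPM it was 2.30% for *zfs1*, 5.64% for the KLF4 match, 9.80% for the Delta-like C match, 20.8% for SMED30000949 and 21.1% for SMED30002872. Scaled by TMM, the same shares were 3.54%, 8.79%, 15.3%, 32.6% and 33.0%. TMM factors were 1.37 to 1.39 in ovary and 1.02 to 1.04 in non-gonadal libraries, and the change also holds the step from TPM to CPM. Ovary RNA in the non-gonadal captures can be set beside these shares through *lecg* and SMED30006692, the match to the germline RNA helicase CGH-1 of *C. elegans*. These stood at 0.281%, 0.973% and 0.254% of their ovary level by TPM, and at 0.0664%, 0.814% and 0.0742%, in non-gonadal replicates 1, 2 and 3. All 5 transcripts stood above both in each of these libraries, with *zfs1* nearest at 1.35%, 3.82% and 1.72%. The CGH-1 match comes from transcripts the study chose as ovary-enriched over these same libraries. Others of that choice kept more, such as the match to the RNA-binding protein MEX3B, at 5.30 TPM against 19.2 in ovary. The study also detected *zfs1*, *klf4* and *tgs-1* in cells anterior to the ovary, and did not detect *lecg* in the *klf4* cells there. It found *tgs-1* in some neoblasts as well, and *delta3* in the penis papilla. The part of such cells in the non-gonadal captures was not tested.

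Non-gonadal replicate 2 was highest for both *lecg* and the CGH-1 match, and for 3 of the 5 described here. Its *zfs1* level was 2.49 times the mean of the other 2 libraries by TPM, that of the KLF4 match 1.73 times and that of SMED30002872 1.45 times. SMED30000949 was at 1.12 times and the Delta-like C match at 0.952 times. For comparison, *lecg* was at 3.64 times and the CGH-1 match at 11.6 times, while *nanos*, a gene of early germ cells in both gonads, was at 1.16 times. The part of ovary RNA in the values of replicate 2 was not tested. A wider list, the 100 most abundant transcripts in ovary among 273 at least 100 times higher there than in testis, served poorly as a measure of ovary RNA, because 43 of the 100 kept over 50% of their ovary level outside the gonads and 55 kept under 10%, by TMM-scaled CPM. On that scale its median was 3.47%, 3.52% and 2.30% of ovary in non-gonadal replicates 1, 2 and 3. There *zfs1* stood at 2.08%, 5.88% and 2.65%, with 55, 47 and 49 of the 100 above it. For each of the others described here, 43 to 47 of the 100 lay above. By TPM the medians were 2.23%, 2.27% and 1.48%, and with a minimum of 30-fold over testis they were 37.5%, 37.6% and 35.5%.

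**Figure D3:**
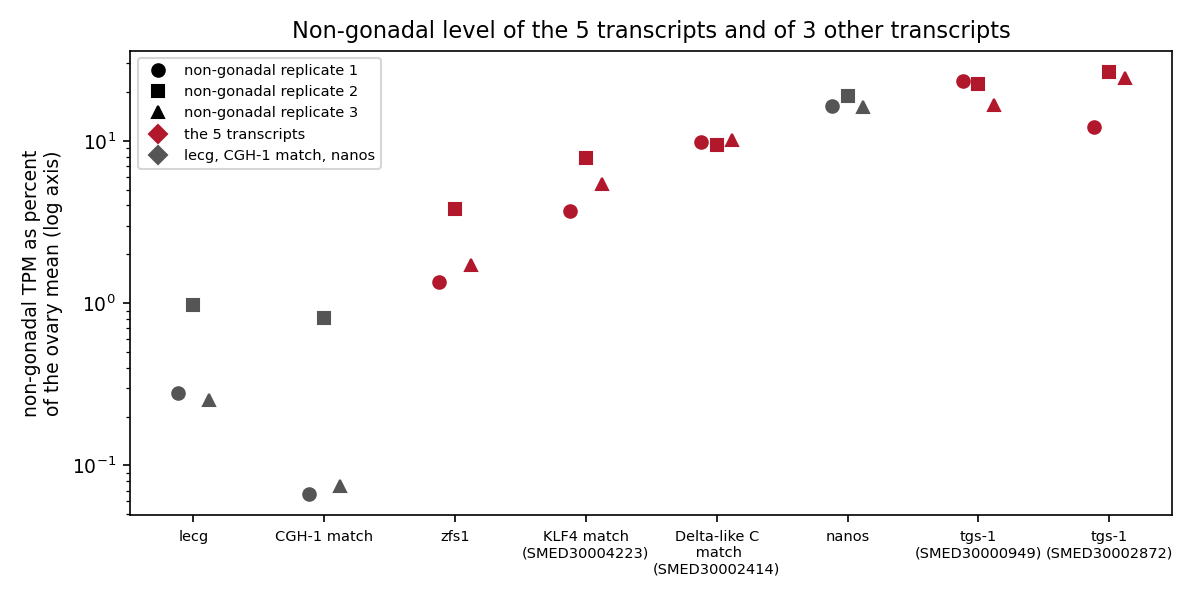
Level in each non-gonadal library as a percent of the mean ovary level by TPM, on a log axis, for the 5 transcripts (red) and for *lecg*, the CGH-1 match and *nanos* (grey). *zfs1* lies between 1.35% and 3.82%, above *lecg* and the CGH-1 match, and the *tgs-1* pair lies highest, between 12.3% and 26.6%.

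In testis the shares of the ovary level ran in another order. By TPM *zfs1* was at 0.0216%, the Delta-like C match at 0.436%, the KLF4 match at 2.23%, SMED30000949 at 2.46% and SMED30002872 at 2.64%. *lecg* in testis stood at 3.39% of its ovary level and the CGH-1 match at 1.98%. *zfs1* and the Delta-like C match lay below both of these transcripts in every testis library. The means of the KLF4 match and the *tgs-1* pair fell between theirs, but single libraries did not: SMED30000949 ran from 1.44% to 3.59%, SMED30002872 from 1.56% to 3.54% and the KLF4 match from 1.79% to 2.72%, against 1.93% to 2.04% for the CGH-1 match and 3.10% to 3.58% for *lecg*. *nanos* stood at 45.4%.

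Among the ovary libraries, 4 of the 5 transcripts shared an order that *zfs1* did not. Both *tgs-1* transcripts, the KLF4 match and the Delta-like C match were lowest in replicate 1 and highest in replicate 2, whereas *zfs1* was highest in replicate 1 and lowest in replicate 2. As a coefficient of variation the spread over the ovary libraries was 10.1% for *zfs1*, 17.5% for the KLF4 match, 20.0% for the Delta-like C match, 24.5% for SMED30002872 and 31.0% for SMED30000949. The 7 testis markers summed to 171, 115 and 167 TPM in ovary replicates 1, 2 and 3, so that their sum was lowest in replicate 2. Of this sum, *sped-1* gave 77.2, 35.2 and 77.8 TPM. The markers did not all share that order. *eIF3c* was highest in replicate 2, at 11.1 TPM, and *nf-yb* was lowest in replicate 3, at 47.2. *lecg* stood at 2840, 2852 and 3059 TPM in the same libraries. With 3 libraries the part of the captured area in these orders was not tested.

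The ratio of the *tgs-1* transcripts to each other was not used to choose them, and was compared between tissues. Reads on SMED30000949 made up 36.5%, 40.1% and 40.9% of those on the pair in ovary replicates 1, 2 and 3, from 830, 1595 and 1140 counts. In non-gonadal tissue they made up 55.5%, 35.4% and 30.8%, and in testis 60.0%, 25% and 30.2% from 30, 32 and 43 counts. SMED30000949 outnumbered its partner only in replicate 1 of these tissues, and the exact 95% interval of the non-gonadal value, 48.1% to 62.7%, did not overlap those of the other non-gonadal libraries. Per length, the log2 ratio of SMED30000949 to SMED30002872 averaged -0.72 in ovary (SD 0.14), -0.65 in non-gonadal tissue (SD 0.78) and -0.80 in testis (SD 1.12; n = 3 each). An exact permutation test of the F statistic over 9 libraries gave p = 0.982, of 1680 arrangements. Nothing is read from it, nor from the pairwise tests, because the pair was picked with its differences known. The 3 pairwise differences were 0.08 for ovary over testis, -0.07 for ovary over non-gonadal tissue and -0.14 for testis over non-gonadal tissue, with two-sided exact permutation p of 1, 1 and 0.7, all 1 when adjusted over the 3 pairs by Benjamini-Hochberg. With 3 libraries a side, p cannot go below 0.1. Without replicate 1 the mean was -1.10 in non-gonadal tissue and -1.44 in testis, and without replicate 2 it was -0.39 in testis and without replicate 3 -0.36 in non-gonadal tissue.

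**Figure D4:**
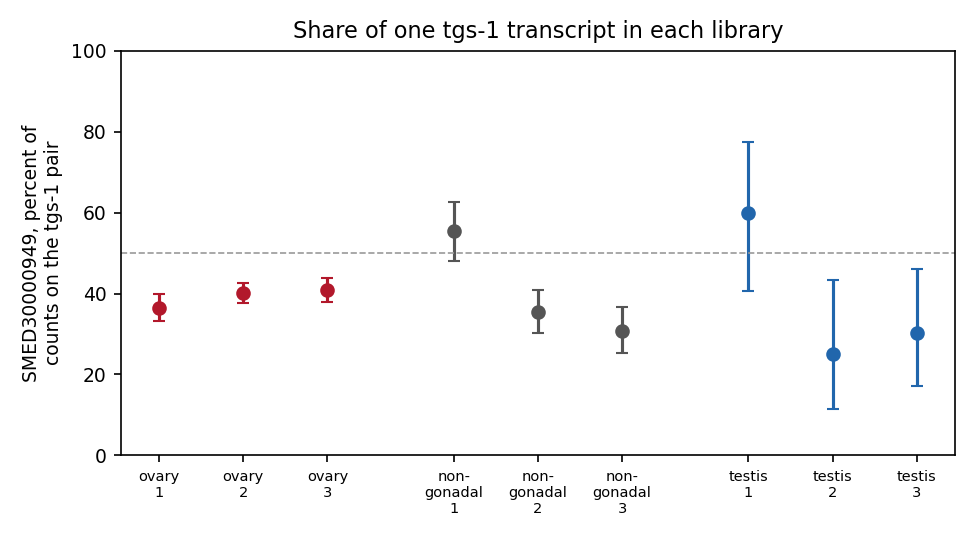
Counts on SMED30000949 as a percent of all counts on the *tgs-1* pair in each library, with exact 95% binomial intervals (bars) that cover counting error only and a dashed line at 50%. The ovary libraries lie between 36.5% and 40.9%, and replicate 1 of testis and of non-gonadal tissue lies above the line.

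Other genes of pathways linked to the names of the 5 were taken from the study's ovary-enriched transcripts with named matches. All 22 were therefore called in that direction over non-gonadal tissue by choice, and nothing is read from it. The same non-gonadal libraries enter the testis comparison below, so its calls beside the shares of all transcripts are given as a description only. Of 7 transcripts matched to mRNA turnover factors, the process in which tristetraprolin-type proteins act, 1 was called higher in testis over non-gonadal tissue, 2 lower and 4 not, with a median log2 difference of 0.11, where 33.4% and 35.1% of all transcripts tested were higher and lower. That called higher was the CGH-1 match, at 3.06 (SE 0.69), for which DESeq2 gave no adjusted p. Those called lower were the match to CNOT6, a deadenylase subunit (SMED30010856, -1.33, SE 0.12), and to the RNA-binding protein MEX3B (SMED30000222, -1.90, SE 0.18). The match to the decapping enzyme DCP2 (SMED30004436) was not called, at 0.11 (SE 0.14).

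Of 9 transcription factor matches, 6 were called lower in testis over non-gonadal tissue, beside 35.1% of all transcripts tested, 0 were higher and 3 were not called. One of those 3, the E2F5 match, had no counts in either tissue and could not be called. At an unadjusted p under 0.05 in edgeR, 0 were higher and 7 lower, and DESeq2 called 0 higher and 6 lower. The difference between this list and the others was not tested. The match to the zinc-finger repressor GFI1 (SMED30006871) had -3.92 (SE 0.38), from 1 to 7 counts in testis libraries against 46 to 76 in non-gonadal libraries. The match to *six1a* (SMED30005620), a homeobox gene, had -2.24 (SE 0.20). The KLF4 match was lower by less, at -0.91, and the match to FOXI2-A (SMED30002894) was near 0 at 0.28 (SE 0.44). The match to E2F5 (SMED30004857), of a family that controls the cell cycle, had 40 to 44 counts in ovary libraries and 0 in every testis and non-gonadal library. Over all transcripts tested the median log2 difference of testis over non-gonadal tissue was -0.10.

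Of 3 transcripts with Notch-related matches, in the same comparison 1 was called higher and 2 were not, while the Delta-like C match was lower. The one called, a match to SBNO1 (SMED30004427), had 0 counts in all non-gonadal libraries, 7 to 19 in testis libraries and 58 to 101 in ovary libraries. FBXW7, a subunit of a ubiquitin ligase that targets the Notch intracellular domain in mammals, had a match (SMED30003098) at 0.52 (SE 0.16). None of 3 piRNA pathway matches was called in either direction by edgeR or by DESeq2, though 1 was called lower in edgeR with library size alone. In the TMM-scaled fit 1 was higher and 2 lower at an unadjusted p under 0.05. Here the match to the tudor protein TDRD1 (SMED30005932) had -0.32 (SE 0.11). Between the gonads 19 of the 22 were called higher in ovary and 0 lower, where 31.6% and 30.4% of all transcripts tested were. The same ovary libraries had served to choose the 22, so nothing is read from this count either. DESeq2 called 18 higher and 0 lower there, and at an unadjusted p under 0.05 in edgeR all 22 were higher and 0 lower. Among the testis values printed here for the lists, scaling by library size alone turned the sign of the small ones of the DCP2, FOXI2-A and FBXW7 matches. List members whose values are not printed are not covered by this.

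The likeness of patterns was measured as Pearson's r of log2(TMM-scaled CPM + 1), where CPM is counts scaled to a common library size, over the 9 libraries, which all share the same 3 tissues, so r is given as a description only. *zfs1* and the KLF4 match were the most alike of the 5, at 0.991, where the KLF4 match ranked 33rd of 18415 transcripts for *zfs1*. The 1 added before log2 shrinks differences between low values, such as the mean *zfs1* CPM of 1.51 in non-gonadal tissue and 0.0195 in testis. In the fit of testis over non-gonadal tissue, *zfs1* was called lower and the KLF4 match was not. The likeness of *zfs1* to other transcripts without that 1 was not tested. The Delta-like C match lay nearer to the *tgs-1* pair, at 0.982 with SMED30000949 and 0.978 with SMED30002872, than to *zfs1*, at 0.944. The *tgs-1* transcripts had an r of 0.955 with each other, and SMED30002872 ranked 655th for SMED30000949. Many transcripts had patterns as close: 42 had an r of at least 0.99 with *zfs1*, 42 with the KLF4 match, 132 with the Delta-like C match, 14 with SMED30000949 and 1 with SMED30002872.

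The transcripts nearest to *zfs1* were SMED30033763 (r = 0.998) and SMED30013688 (0.997), which have no named match at hand. Among 377 ovary-enriched transcripts with a named match, those nearest to *zfs1* matched the *C. elegans* degenerin-like channel protein UNC-105 (SMED30002847, 0.997) and the *Drosophila* RNA-binding protein couch potato (SMED30006085, 0.996). The latter had 42.7 TPM in ovary, 7.11 in non-gonadal tissue and 3.89 in testis. Nearest to the KLF4 match were SMED30024450 (0.999) and SMED30031015 (0.997) and, by name, the matches to THADA (SMED30004455, 0.996) and DTWD1 (SMED30001119, 0.995).

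For SMED30000949 the nearest of all transcripts was the MEX3B match named above (0.994), at 19.2 TPM in ovary, 5.30 in non-gonadal tissue and 1.05 in testis. Then came SMED30025325 (0.993) and, by name, the match to the centriole protein centriolin (SMED30012954, 0.991). For SMED30002872 they were SMED30016522 (0.993) and SMED30024778 (0.99) and, by name, the matches to the kinase D-interacting substrate KDIS (SMED30002023, 0.985) and to a protocadherin (SMED30010131, 0.983). The Delta-like C match had SMED30033662 and SMED30025408 (0.999 each) and, by name, the match to the adhesion protein protocadherin-1 (SMED30002762, 0.998), at 11.1 TPM in ovary, 1.56 in non-gonadal tissue and 0.123 in testis. The match to the cytosolic purine nucleotidase 5NTC (SMED30005299) followed at 0.997.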

How the data were processed

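Laser-captured RNA was sequenced in 3 libraries for each of 3 tissues, from stranded libraries. The authors mapped trimmed reads in CLC Genomics Workbench to a planarian transcriptome with *zfs1* added. The version of that program, and what was done with reads that fit more than 1 transcript, are not stated. The deposited count of reads per transcript, without normalization, was the main input, and was equal in both deposited tables for 324324 values. The row of *zfs1* has a different number in each table and was taken by its name. The authors deposited TPM and RPKM, from which levels and transcript lengths were taken. The deposited CPM is a signal that sums to between 724797 and 1582270 per library, so it carries a scaling the sources do not describe. It was used for the filter alone, at least 1 CPM in at least 3 libraries. The authors' fold changes and adjusted p-values for their comparisons were not used.

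edgeR 4.0.16 (R 4.3.3) was run with TMM scaling and 1 quasi-likelihood model of all 9 libraries, and p-values were adjusted by Benjamini-Hochberg over 18416 transcripts. Standard errors are the log2 fold change divided by the square root of F. Ratios against a tissue with few counts and shares of counts have exact 95% binomial intervals (scipy 1.17.1), which cover counting error only, since reads lacking molecular identifiers do not count molecules. The *tgs-1* ratio used counts plus 0.5 per base of transcript. The script for the edgeR fit was tested on simulated data. Replicates were compared, and no library was a copy of another. Whether they came from separate worms is not stated beyond the pool sizes, so p-values measure the spread between these libraries.

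The 5 transcripts, the pathway lists and the markers were chosen with earlier results of these data known. Named transcripts were the 5, for each the 2 most alike over the 9 libraries among all tested and among those with a named match, and the lists. The names came from a shortened table of the study's ovary-enriched transcripts. Alternatives were DESeq2 size factors, library size alone, the DESeq2 1.42.0 Wald test, no filter or the filterByExpr filter, only the tissues compared, an adjusted p of 0.05, the replicate number as a block, each library left out, other offsets, and other ovary-restricted lists. A filter on CPM from library totals was added after the data were seen.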

Additional observations from a re-analysis of the deposited data

How the results depend on the processing

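Of 240 log2 differences of the 5 transcripts under alternative settings, 237 kept their direction and call. The exceptions were the KLF4 match in testis against non-gonadal tissue, which was called lower at -1.46 with library size alone and at -1.13 and -1.14 without testis replicate 3 or non-gonadal replicate 1, with a range over left-out libraries from -1.14 to -0.60. Scaling by library size alone moved the median of all transcripts tested from 0.02 to 0.44 in ovary against non-gonadal tissue, from -0.10 to -0.65 in testis against non-gonadal tissue and from 0.22 to 1.19 between the gonads. It changed the split of calls in ovary against non-gonadal tissue from 3364 higher and 3466 lower to 5311 and 2390, and between the gonads from 5828 and 5602 to 9738 and 4202. The total number of calls moved by less than 1.5 times in every setting, but under library size alone the higher calls of these 2 comparisons, given above, moved by more. The median of the ovary-restricted list rested on its choice: in non-gonadal replicates 1, 2 and 3 it was 37.5%, 37.6% and 35.5% of ovary with a minimum of 30-fold, 14.4%, 16.2% and 9.64% for 50 transcripts, and 2.23%, 2.27% and 1.48% by deposited TPM.

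The replicate number was also used as a block. Correlations of deviations from the tissue means were 0.0168 to 0.227 between libraries of the same number, 4 of 9 over 0.1, and -0.192 to 0.0769 between different numbers. In 16 of 18 cases a library was most alike to the one of its own number, a hint from the data and not from the design. With the block 6743, 12578 and 11393 transcripts were called in ovary against non-gonadal tissue, testis against non-gonadal tissue and ovary against testis, where the fit without it called 6830, 12618 and 11430, and no call of the 5 changed. Depth limits the testis values of *zfs1*, the *tgs-1* pair and the Delta-like C match, which rest on 1 to 30 counts a library where any were seen.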
